A study of Mus musculus with 12 samples.

Results

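Pericentral (PC) and periportal (PP) hepatocytes of mice fasted for 24 h were compared across all expressed genes. The comparison used 6 of the 12 RNA libraries of the series, 3 PC libraries against 3 PP libraries, chosen by their labels. Of 28030 listed genes, 12086 passed the filter on low counts and were tested. The mice were wild-type (WT) females, 12 weeks old, kept on normal chow, and the labels give no strain. All had been trained for 3 days with 16 h of fasting overnight and 8 h of feeding by day. Fasted mice then received food and 20% sucrose in the drinking water for 4 h, and both were withdrawn for 24 h. The other 6 libraries, PC and PP of mice killed after the same 4 h of feeding, shared the model and serve below as a second look at the zones. The labels name digitonin, a detergent that destroys the cells it reaches so that hepatocytes of the opposite zone can be recovered. The libraries of a group are labelled as biological replicates. Nothing says if libraries with the same number shared a mouse. The p-values reflect the spread among libraries, which may be partly technical.

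Hepatocytes divide their work along the axis of the liver lobule. Blood enters at the portal tract, rich in oxygen and nutrients, and leaves at the central vein. Periportal cells are known for gluconeogenesis, amino acid breakdown, urea synthesis and protein secretion. Pericentral cells are known for glutamine synthesis, bile acid synthesis and cytochrome P450 metabolism of foreign compounds. Wnt ligands from the endothelium of the central vein maintain the innermost pericentral cells through beta-catenin and its TCF/LEF partners.

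Fasted libraries held 16245846 to 23969208 estimated counts. Levels are given in CPM, counts per unit of library size after TMM scaling (trimmed mean of M values), which do not correct for transcript length and are compared here between libraries only. Fold changes are log2 values of PC minus PP with their standard error (SE) from edgeR's quasi-likelihood test, with 3 libraries per group. An adjusted p (Benjamini-Hochberg) under 0.05 was taken as a call. A call is described as held when it also passed, with the same sign, in each of 12 fits that left out 1 library. Fasted PC replicate 1 stood apart from the other PC libraries. The summed level of the 17 tested central vein Wnt targets was 939 CPM there against 7259 and 5461 CPM in PC replicates 2 and 3, and 107 to 246 CPM in PP. Results are therefore given with and without that library. It was singled out by these same markers. Their folds and p-values without it follow in part from that choice. In bulk libraries, fewer cells of a kind and less RNA per cell cannot be told apart.

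With all libraries 774 of 12086 genes (6.4%) were called, 405 higher in PC (3.35%) and 369 lower (3.05%). These shares are the background for the counts of called list members below. Without PC replicate 1 the calls came to 1005 of 12396 genes (8.11%), 484 higher (3.9%) and 521 lower (4.2%). Of the 774 genes, 655 were called in both fits. Leaving out PC replicate 2 gave 386 calls, PC replicate 3 490 and PP replicate 3 492, and without PP replicate 1 the higher side fell to 254. The calls that held numbered 326 (2.7%), 173 higher (1.43%) and 153 lower (1.27%). The groups of 3 did not overlap in CPM for 403 of the 405 higher and 366 of the 369 lower genes, against 2654 of all genes tested (22%). The median log2 fold change was 0.91 among the higher and -1.21 among the lower calls, and 86 and 104 genes lay beyond 2 in either direction.

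**Figure D1:**
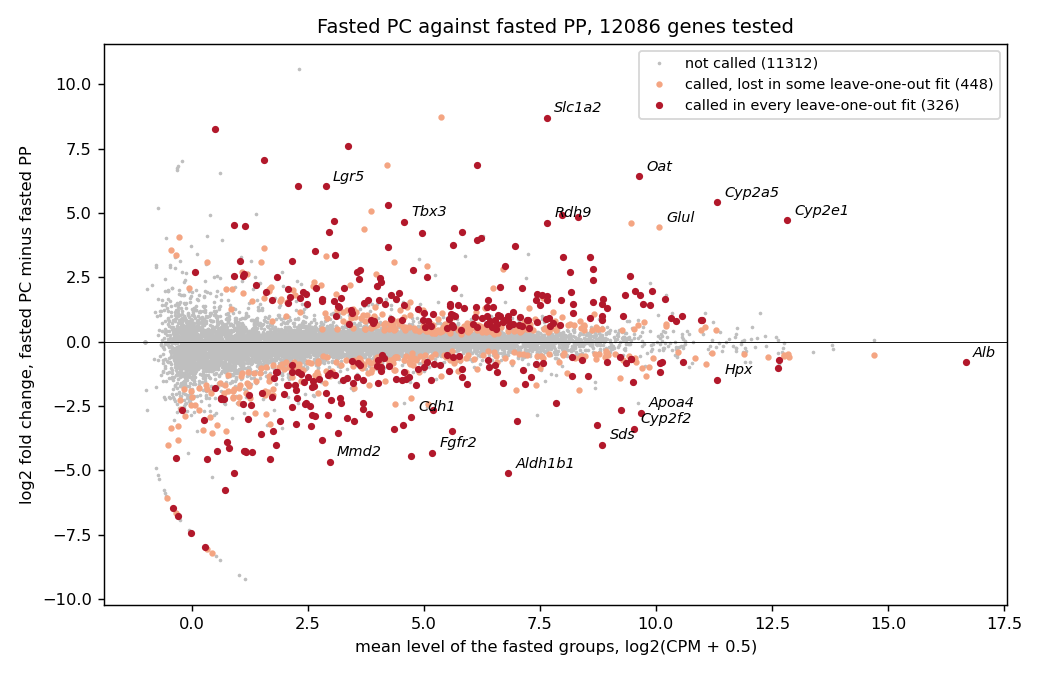
Log2 fold change of fasted PC minus fasted PP (vertical axis) against the mean level of the fasted groups as log2(CPM + 0.5) (horizontal axis). Each point is 1 of the 12086 genes tested. The 326 dark red genes were called in every leave-one-out fit, and they lie on both sides of 0, with Slc1a2 at 8.71 at the top and Aldh1b1 at -5.10 near the bottom. The top point at the left, Slc22a3, and Sp5 rest on a PP group at 0, so their heights depend on the prior count.

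Genes of the innermost cells, next to the central vein, were far higher in PC. Of 22 such Wnt targets, 17 were tested, 14 were called higher in PC and none lower, and 13 of the calls held. The median log2 fold change was 4.46, and 4.87 without PC replicate 1, against -0.0014 over all genes tested. Slc1a2 (ENSMUSG00000005089), a glutamate importer, was at 13.1, 634 and 552 CPM in PC and 1.15, 0.747 and 0.957 CPM in PP (log2 fold change 8.71 ± 1.34, adjusted p = 0.005). Its lowest PC library, replicate 1, lay far below the other PC libraries and still above every PP library. Without that library, left out for its low levels of such markers, the difference was 9.28 ± 0.28, adjusted p = 8.4e-09. With the 6 fasted libraries fitted alone the call was lost (adjusted p = 0.098). Oat, ornithine aminotransferase, which feeds ornithine nitrogen toward glutamate, was at 452, 2309 and 1971 CPM in PC and 25.5, 16.6 and 13.1 CPM in PP (log2 fold change 6.42 ± 0.66, adjusted p = 0.00074). Again replicate 1 was the lowest PC library and the groups were far apart, with 6.86 ± 0.39, adjusted p = 4.2e-06 without it.

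Glul (ENSMUSG00000026473), glutamine synthetase and the classical marker of the innermost cells, was at 172, 3639 and 2353 CPM in PC and 79.8, 151 and 49.3 CPM in PP. Replicate 1 lay just above the highest PP library. The call (log2 fold change 4.46 ± 0.94, adjusted p = 0.023) was lost when PC replicate 2 or 3, or PP replicate 1 or 3 was left out, and with the fasted libraries alone (adjusted p = 0.18). Without PC replicate 1 it was 4.99 ± 0.47, adjusted p = 0.00021. Lhpp, a phosphohistidine phosphatase, was at 32.3, 198 and 186 CPM in PC and 1.6, 1.27 and 0.684 CPM in PP (log2 fold change 6.87, and 7.34 without PC replicate 1). Slc13a3, a dicarboxylate carrier, was at 2.94, 30.9 and 24.3 CPM in PC and 0.1, 0.176 and 0 CPM in PP (log2 fold change 7.62, and 8.13 without PC replicate 1). In both genes the lowest PC library exceeded every PP library.

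The pathway genes Lgr5, Axin2 and Tbx3 were also higher in PC, with smaller gaps among the PC libraries. Lgr5, the R-spondin receptor, was at 9.32, 24.1 and 7.37 CPM in PC and 0.1, 0.264 and 0.228 CPM in PP (log2 fold change 6.04 ± 0.58, adjusted p = 0.00029). Here replicate 1 was not the lowest PC library, and without it the difference was 6.25. Axin2, which feeds back on beta-catenin, was at 5.51, 11.6 and 14.7 CPM in PC and 0.953, 1.54 and 0.274 CPM in PP (log2 fold change 3.51 ± 0.53, adjusted p = 0.0026), and 3.82 without replicate 1. Tbx3, a transcription factor under Wnt control, was at 30.3, 45.4 and 59 CPM in PC and 1.6, 2.94 and 0.729 CPM in PP (log2 fold change 4.66 ± 0.46, adjusted p = 0.00041), and 4.87 without it. No library of these genes crossed between the groups. Tnfrsf19 (6.07), the secreted Wnt inhibitor Notum (2.11), the ubiquitin ligase Rnf43 (1.81) and the TCF/LEF factor Tcf7 (1.5) were also higher in PC and held. Lect2, a secreted protein, was at 97.3, 167 and 154 CPM in PC and 8.38, 15 and 2.42 CPM in PP (log2 fold change 4.02, and 4.22 without PC replicate 1). Sp5, a target that represses other Wnt targets, was at 0.206, 3.61 and 1.61 CPM in PC and at 0 in every PP library. Against a floor of 3 counts over the PP group its PC mean was at least 39.0-fold higher. The 3 other tested members did not pass with all libraries: Znrf3 (log2 fold change 0.76 ± 0.23, adjusted p = 0.08), Nkd1 (log2 fold change 2.52 ± 1.01, adjusted p = 0.19) and Ccnd1 (log2 fold change -0.02 ± 0.50, adjusted p = 0.99). Znrf3 passed without PC replicate 1 (0.92 ± 0.24, adjusted p = 0.037). The members Lef1, Nkd2, Prr5l and Apcdd1 were too low to test, with at most 0.461 CPM in any fasted library.

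**Figure D2:**
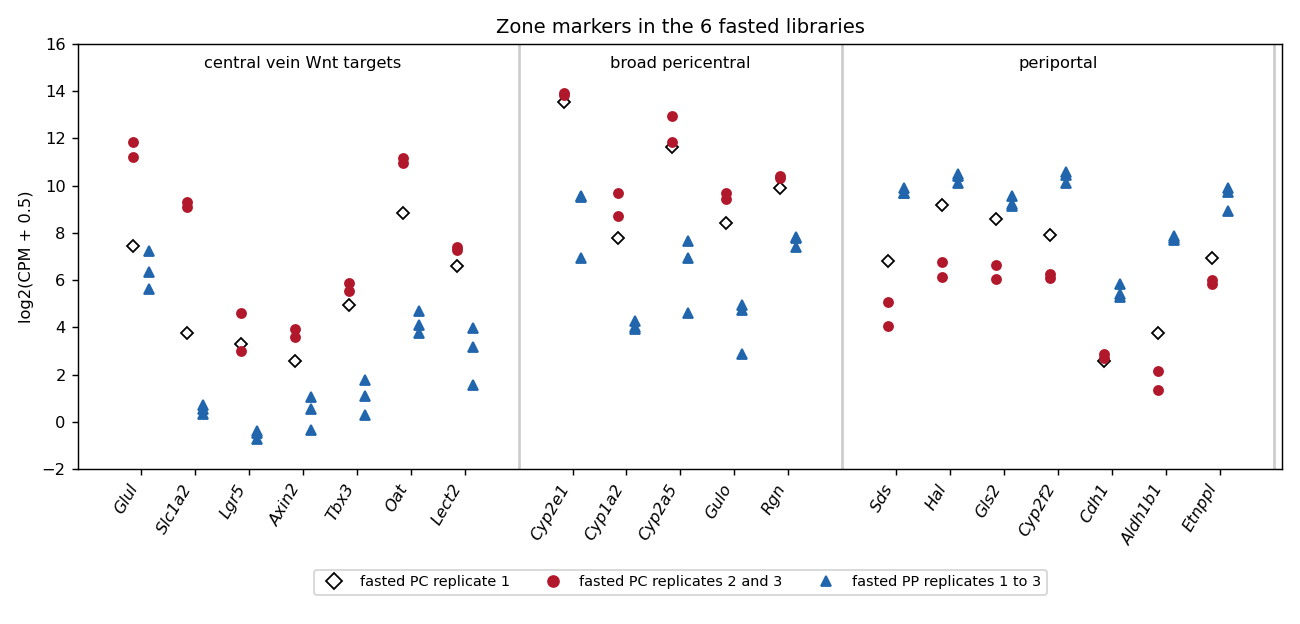
Level of 19 zone markers as log2(CPM + 0.5) in each fasted library. Open diamonds are PC replicate 1, red circles PC replicates 2 and 3, and blue triangles the 3 PP libraries. For Glul, Slc1a2, Oat, Hal and Gls2 the diamond lies between the circles and the triangles, while for Cyp2e1, Cdh1 and Rgn it lies near the circles.

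RefSeq promoter windows of GRCm38.p6, 300 bases from upstream of the annotated start to just past it, were matched for 128 of the 173 genes held higher in PC (175 windows) and for 108 of the 153 held lower (142 windows). The letters CTTTGAT or CTTTGAA, a TCF/LEF core, stood on either strand in 13.1% of the former windows and 6.34% of the latter. Windows of all genes tested held them in 6.07% of 11965, and all windows of the table in 8.65% of 32851. Of the central vein Wnt targets 11 were matched and 4 held these letters, Lect2, Slc1a2, Sp5 and Tnfrsf19, while of the broad pericentral markers 6 of 21 did and of the periportal markers 3 of 27. These are counts of genes, some with several windows, and cannot be set against the shares of windows. Counted by gene, 20 of the 128 held higher and 8 of the 108 held lower had a match. All genes tested were not counted in this way. The HNF4A letters CAAAGTCCA stood in 3.43% of the windows of genes held higher, 0.704% of those held lower and 0.51% of those tested. Their genes on the higher side were Agxt2, Cyp2c67, Cyp2c69, Cyp8b1 and Pdzk1. The AHR-ARNT letters TNGCGTG stood in 7.43%, 11.3% and 7.77%, and the cyclic AMP response letters TGACGTCA in 0.571%, 2.82% and 3.02%, in the same order. The HNF1 palindrome stood in none of the windows of held genes. It stood in only 9 of the 11965 windows of genes tested (0.0752%), too rare for its absence to be read. Each motif was searched on both strands. CTTTGAT and CTTTGAA differ in the last base only, and read on the other strand they share the run CAAAG with the HNF4A letters. A match is a description of letters. Windows of 3 genes higher in PC and 1 periportal gene are shown because each holds a TCF/LEF core, in capitals. The Slc1a2 window (chr2:102706188-102706487, + strand) lies within the span of the gene in the GENCODE annotation (102658659 to 102790784 on chromosome 2). The others are Cyp2e1 (chr7:140763569-140763868, + strand), Cyp1a2 (chr9:57683606-57683905, - strand) and the periportal gene Hal (chr10:93488518-93488817, + strand), each read along the gene's strand.
Slc1a2: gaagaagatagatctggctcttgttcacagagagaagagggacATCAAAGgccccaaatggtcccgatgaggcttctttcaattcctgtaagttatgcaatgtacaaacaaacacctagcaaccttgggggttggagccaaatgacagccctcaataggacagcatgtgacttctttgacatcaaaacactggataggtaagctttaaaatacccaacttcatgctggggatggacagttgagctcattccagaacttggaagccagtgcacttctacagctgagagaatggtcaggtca
Cyp2e1: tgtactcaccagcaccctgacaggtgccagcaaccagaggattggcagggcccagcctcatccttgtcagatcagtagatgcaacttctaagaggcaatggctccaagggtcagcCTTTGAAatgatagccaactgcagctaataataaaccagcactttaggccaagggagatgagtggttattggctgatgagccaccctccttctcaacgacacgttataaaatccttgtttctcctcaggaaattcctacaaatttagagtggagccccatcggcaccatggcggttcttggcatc
Cyp1a2: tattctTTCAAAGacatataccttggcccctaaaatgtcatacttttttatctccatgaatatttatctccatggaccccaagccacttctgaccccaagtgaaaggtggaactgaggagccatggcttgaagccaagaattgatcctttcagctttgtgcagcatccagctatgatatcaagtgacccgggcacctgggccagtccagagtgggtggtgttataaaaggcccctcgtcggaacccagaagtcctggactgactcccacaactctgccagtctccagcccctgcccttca
Hal: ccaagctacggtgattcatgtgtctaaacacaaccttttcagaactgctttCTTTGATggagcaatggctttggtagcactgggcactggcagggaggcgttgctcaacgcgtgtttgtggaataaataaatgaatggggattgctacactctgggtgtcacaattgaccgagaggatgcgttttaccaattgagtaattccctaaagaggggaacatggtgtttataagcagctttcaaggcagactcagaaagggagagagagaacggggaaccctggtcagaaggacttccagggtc

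Most markers of the wider pericentral zone were called higher in PC with replicate 1 included. All 29 were tested, 21 were higher in PC and none lower, and 20 held, with a median log2 fold change of 1.68, and 1.90 without replicate 1, where 24 passed. Cyp2e1 (ENSMUSG00000025479), which oxidises ethanol and other small molecules, was at 11794, 15402 and 14721 CPM in PC and 723, 754 and 120.3 CPM in PP (log2 fold change 4.71 ± 0.70, adjusted p = 0.0036). The PC libraries lay close together and PP replicate 3 lay below the other PP libraries. Gulo, the last enzyme of vitamin C synthesis, was at 345, 815 and 688 CPM in PC and 26.3, 30.4 and 6.79 CPM in PP (log2 fold change 4.86, and 5.15 without PC replicate 1). Rgn, regucalcin, a calcium-binding lactonase of the same route, was at 944, 1345 and 1272 CPM in PC and 225, 219 and 169 CPM in PP (log2 fold change 2.54, and 2.67 without PC replicate 1). Car3, a carbonic anhydrase, was at 766, 579 and 674 CPM in PC and 104, 156 and 119.9 CPM in PP (log2 fold change 2.41 ± 0.19, adjusted p = 4.7e-05), and here replicate 1 was the highest PC library. The vasopressin receptor Avpr1a (2.80), the aldo-keto reductase Akr1c6 (3.29) and the paraoxonase Pon1 (1.48) held as well. The organic cation carrier Slc22a3 was at 0.103, 13.4 and 13.1 CPM in PC and 0, 0 and 0 CPM in PP. The PC mean of Slc22a3 was at least 191-fold higher than a floor of 3 counts over the PP group. It was not called with all libraries (adjusted p = 0.11) and was called without replicate 1 (adjusted p = 0.00047).

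Cytochrome P450 genes of families 1 to 3, which oxidise drugs, steroids and fatty acids, were mostly higher in PC where they were called. Of 41 tested, 17 were higher and 2 lower, 12 and 2 of which held, and 15 and 5 were called without PC replicate 1. Cyp1a2, an Ahr target that oxidises aromatic amines and caffeine, was at 218, 829.9 and 420.3 CPM in PC and 15.6, 14.6 and 18.6 CPM in PP (log2 fold change 4.91 ± 0.44, adjusted p = 0.00029), and without replicate 1 at 5.26 ± 0.29, adjusted p = 2.5e-06. Cyp2a5 was at 3170.3, 7992 and 3732 CPM in PC and 122, 199.8 and 24 CPM in PP (log2 fold change 5.43, and 5.66 without PC replicate 1). PP replicate 3 was again the lowest library. The Cyp2c genes Cyp2c38 (2.94), Cyp2c69 (2.83), Cyp2c50 (1.99), Cyp2c37 (1.97), Cyp2c39 (1.88), Cyp2c67 (1.62) and Cyp2c54 (1.60) held, with counts divided by a model among close paralogs. The genes on the PP side were Cyp2f2, at 242, 67.8 and 75.4 CPM in PC and 1106, 1514 and 1392 CPM in PP (log2 fold change -3.38 ± 0.46, adjusted p = 0.0019), and Cyp2b10, the standard target of the receptor CAR, at 16.5, 8.12 and 15.5 CPM in PC and 55.2, 38.9 and 34.8 CPM in PP (log2 fold change -1.68 ± 0.25, adjusted p = 0.0019). The near-identical genes Cyp3a41b and Cyp3a16 were at 235, 4.33 and 7.04 CPM in PC and 0, 0.527 and 0 CPM in PP, and 97.2, 4.93 and 4.16 CPM in PC and 0.552, 0.351 and 0 CPM in PP. PC replicate 1 alone was high, their calls (adjusted p = 0.049 and 0.047) failed without it (0.084 and 0.072), and how reads were divided between such copies is uncertain. Cyp3a11 was at 3126, 7319 and 9462 CPM in PC and 3415, 1138 and 4550.1 CPM in PP and was not called (adjusted p = 0.27).

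Some of the 15 highest and 15 lowest held log2 fold changes belonged to genes of none of the lists. Rdh9, a retinol and steroid dehydrogenase, was at 174, 473 and 514 CPM in PC and 14.8, 20.3 and 11.7 CPM in PP (log2 fold change 4.63 ± 0.40, adjusted p = 0.00022), and without replicate 1 at 4.97 ± 0.22, adjusted p = 2.9e-07. Nxpe2, of unclear function, was at 29.9, 41 and 35.4 CPM in PC and 1.2, 1.41 and 0.0456 CPM in PP (log2 fold change 5.32, and 5.42 without PC replicate 1). Fitm1, a lipid droplet protein of the endoplasmic reticulum, was at 7.37, 24.2 and 13.8 CPM in PC and 0.953, 0.571 and 0.228 CPM in PP (log2 fold change 4.70, and 5.02 without PC replicate 1), and the calcineurin regulator Rcan2 at 7.16, 21.8 and 12.2 CPM in PC and 0.451, 1.23 and 0.41 CPM in PP (log2 fold change 4.27, and 4.57 without PC replicate 1). In each of these 4 genes the lowest PC library lay above every PP library. On the lower side were Reck, a membrane inhibitor of metalloproteinases, at 1.29, 0.903 and 0.388 CPM in PC and 11.6, 13.1 and 11.7 CPM in PP (log2 fold change -3.80 ± 0.56, adjusted p = 0.0024), and the prostaglandin D synthase Ptgds at 0.464, 0 and 0.554 CPM in PC and 3.81, 7.78 and 5.56 CPM in PP (log2 fold change -4.02 ± 0.73, adjusted p = 0.0071). The secreted protein gene Olfm3 (-3.45) and the lysine methyltransferase Setd7 (-3.28) were lower as well, and in these 4 genes every PC library lay below every PP library. Among called genes of the highest CPM, Sord, sorbitol dehydrogenase, was at 2469, 2762 and 2524 CPM in PC and 1434, 1489 and 1376 CPM in PP (log2 fold change 0.85 ± 0.11, adjusted p = 0.00087) and held, and the alcohol dehydrogenase Adh1 gave 0.46. On the lower side of that group were Gc, the vitamin D-binding protein, at 6648, 5946 and 5812 CPM in PC and 8008, 9010.3 and 8483 CPM in PP (log2 fold change -0.47 ± 0.11, adjusted p = 0.019), and the respiratory chain genes mt-Co1 (-0.51) and mt-Co2 (-0.60).

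Called enzymes that conjugate or reduce foreign compounds lay on both sides. Of 52 conjugating enzymes tested, 8 were higher and 4 lower in PC, 7 and 3 of which held, and 11 and 4 passed without PC replicate 1. Calls over all genes tested were 3.35% higher and 3.05% lower. The glutathione transferase Gstm2 was at 27.6, 222 and 146 CPM in PC and 5.52, 10.6 and 8.98 CPM in PP (log2 fold change 3.97, and 4.44 without PC replicate 1). Gsta3 was at 1609.6, 1737 and 1701 CPM in PC and 954, 992 and 734 CPM in PP (log2 fold change 0.91 ± 0.12, adjusted p = 0.001), a smaller difference that replicate 1 shared in full. The sulfotransferase Sult2a8 was higher (1.77), whereas Sult5a1 was lower, at 1.65, 0.301 and 0.443 CPM in PC and 8.28, 11.2 and 3.37 CPM in PP (log2 fold change -3.21 ± 0.59, adjusted p = 0.0081). The glucuronosyltransferases Ugt1a6a (0.97) and Ugt1a9 (-1.32), which share exons of the same locus, were called in opposite directions and their reads are hard to divide. Nnmt, which methylates nicotinamide, was at 109.6, 63.4 and 90.5 CPM in PC and 280.1, 182 and 227 CPM in PP (log2 fold change -1.39 ± 0.21, adjusted p = 0.0019).

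Among 19 alcohol and aldehyde dehydrogenases 6 were higher and 2 lower, 4 and 2 of which held, and 4 and 2 were called without PC replicate 1. Higher calls made up 3.35% and lower calls 3.05% of all genes tested. Aldh1a1, a retinaldehyde dehydrogenase, was at 1165, 2208 and 2003 CPM in PC and 456, 627 and 597 CPM in PP (log2 fold change 1.68 ± 0.21, adjusted p = 0.00076), Aldh3a2, which clears fatty aldehydes, gave 1.82, and Aldh2 0.83. Aldh1b1 (ENSMUSG00000035561), a mitochondrial relative, was at 12.9, 2.05 and 3.88 CPM in PC and 232, 205 and 218 CPM in PP (log2 fold change -5.10 ± 0.72, adjusted p = 0.0031). Its log2 fold change was the lowest of the named genes, and -6.20 without PC replicate 1. Of 28 Nrf2 antioxidant genes 6 were higher and none lower (7 and 0 without PC replicate 1), and Prdx6 (0.72), Abcc3 (0.86) and the aldehyde oxidase Aox3 (1.81) held. In heme metabolism 17 genes were tested, 5 higher and 2 lower, 4 and 1 of which held (4 and 2 were called without PC replicate 1). The synthesis enzymes Alad (0.80) and Cpox (0.93) and the biliverdin reductase Blvrb (2.13) were higher. Alas1, the regulated first step of the pathway, was at 297, 539 and 430.3 CPM in PC and 309, 409 and 619.8 CPM in PP and its groups overlapped (adjusted p = 0.93).

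Bile acid genes that were called were mostly higher in PC. Of 30 tested, 9 were higher and 1 lower, 7 and 1 of which held, and 11 and 1 were called without PC replicate 1. The share over all genes tested was 3.35% higher and 3.05% lower. Cyp27a1, which opens the acidic route, was at 553, 805 and 740.5 CPM in PC and 244, 264 and 160.0 CPM in PP (log2 fold change 1.65 ± 0.18, adjusted p = 0.00041). Cyp7b1, the next enzyme there, was at 22.2, 34.7 and 24.4 CPM in PC and 5.37, 6.72 and 2.64 CPM in PP (log2 fold change 2.46 ± 0.31, adjusted p = 0.00094), and Hsd3b7, shared by both routes, at 298, 299 and 312 CPM in PC and 104, 125 and 70.4 CPM in PP (log2 fold change 1.60 ± 0.18, adjusted p = 0.00041). Cyp8b1, which sets the share of cholic acid, was at 302, 256 and 209 CPM in PC and 109, 102 and 41.9 CPM in PP (log2 fold change 1.60 ± 0.32, adjusted p = 0.013). All PC libraries of these 4 genes lay above all PP libraries, replicate 1 included. Cyp7a1, the rate-limiting enzyme of the classical route, was at 337, 341 and 146 CPM in PC and 36.7, 38.3 and 2.28 CPM in PP. Its groups did not overlap, but the PP libraries ranged widely and it did not pass (log2 fold change 3.41 ± 0.96, adjusted p = 0.075), whereas DESeq2 called it (adjusted p = 0.004). The uptake carrier Slco1b2 (1.43) and the basolateral exporter Abcc3 (0.86) held, and the exporter Abcc4 (log2 fold change 4.37 ± 0.89, adjusted p = 0.019) lost its call when PP replicate 1 or 3 was left out. Nr0b2, the repressor known as SHP, was the lower gene, at 17.4, 9.39 and 14.7 CPM in PC and 31.1, 33.3 and 44.3 CPM in PP (log2 fold change -1.39 ± 0.23, adjusted p = 0.003).

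Markers of the periportal zone were lower in PC. Of 36 tested, 19 were lower and 1 higher in PC, 15 and 1 of which held, with a median log2 fold change of -1.21. Without PC replicate 1 the median was -1.44 and 24 were lower. Sds (ENSMUSG00000029597), serine dehydratase, was at 112, 16.2 and 32.6 CPM in PC and 952, 818 and 825 CPM in PP (log2 fold change -4.01 ± 0.65, adjusted p = 0.0061). Its PC replicate 1 lay between the other PC libraries and PP, and without it the difference was -5.15 ± 0.43, adjusted p = 7.7e-05. The call of Sds was lost with the fasted libraries alone (adjusted p = 0.069). Sdsl, its relative, behaved alike (-3.39, and -4.35 without PC replicate 1). Etnppl, which breaks down phosphoethanolamine, was at 122, 57.4 and 63.2 CPM in PC and 849, 483 and 959 CPM in PP (log2 fold change -3.24, and -3.67 without PC replicate 1). Hsd17b13, a lipid droplet protein, was at 295, 78.2 and 129.9 CPM in PC and 981, 1069 and 1083 CPM in PP (log2 fold change -2.64, and -3.33 without PC replicate 1). The protease Ctsc was at 58, 9.57 and 14 CPM in PC and 181, 271 and 233 CPM in PP (log2 fold change -3.06, and -4.28 without PC replicate 1).

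Not every gene lower in PC had such a gap within PC. Cdh1 (ENSMUSG00000000303), E-cadherin, was at 5.46, 5.96 and 6.76 CPM in PC and 56.8, 38.6 and 41.5 CPM in PP (log2 fold change -2.91 ± 0.30, adjusted p = 0.00041), and -2.84 without replicate 1. Mmd2, a membrane protein of uncertain function, was at 0.773, 0.301 and 0.554 CPM in PC and 11.7, 13 and 17.7 CPM in PP (log2 fold change -4.67 ± 0.31, adjusted p = 2.3e-05). Nid1, a basement membrane protein, was at 1.34, 1.02 and 1.61 CPM in PC and 13.5, 10.7 and 22.3 CPM in PP (log2 fold change -3.54 ± 0.38, adjusted p = 0.00041), and the transcription factor gene Sox9 at 1.39, 1.38 and 2.44 CPM in PC and 6.77, 4.7 and 5.52 CPM in PP (log2 fold change -1.70 ± 0.32, adjusted p = 0.0066). For these 4 genes replicate 1 lay close to the other PC libraries. In the next pair it was again the PC library nearest PP. Cryl1, a dehydrogenase of the glucuronate pathway, was at 4.12, 1.69 and 0.998 CPM in PC and 44, 59.8 and 44.4 CPM in PP (log2 fold change -4.42, and -5.21 without PC replicate 1), and Fgfr2, a fibroblast growth factor receptor, at 6.7, 1.62 and 1.83 CPM in PC and 47.9, 60.6 and 95.6 CPM in PP (log2 fold change -4.31, and -5.30 without PC replicate 1). Slc3a1, a subunit of the cystine carrier, was at 10.1, 4.87 and 8.65 CPM in PC and 68.5, 88.4 and 109.6 CPM in PP (log2 fold change -3.49 ± 0.36, adjusted p = 0.00056). Nid1 and Slc3a1 are not on the periportal list and were named for their low log2 fold changes in these data. The exception in the periportal list was Ldhd, a D-lactate dehydrogenase that was higher in PC (log2 fold change 0.64 ± 0.12, adjusted p = 0.0075).

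Several standard periportal genes did not pass with all libraries. Hal, histidine ammonia-lyase, was at 579, 69.9 and 109 CPM in PC and 1429, 1369 and 1121 CPM in PP (log2 fold change -2.37 ± 0.67, adjusted p = 0.075). Replicate 1 lay between the other PC libraries and PP, and without it Hal was called (-3.88 ± 0.26, adjusted p = 5.4e-06). Gls2, liver glutaminase, was at 386, 65.4 and 99.7 CPM in PC and 755, 589 and 562 CPM in PP (log2 fold change -1.79 ± 0.54, adjusted p = 0.091), and -2.95 ± 0.22, adjusted p = 9.1e-06 without replicate 1. Pigr, the carrier of secreted antibodies, went from adjusted p = 0.081 to 0.00045 in the same way. Cyp17a1, a steroid hydroxylase, was at 107, 7.16 and 12 CPM in PC and 255, 503 and 155 CPM in PP (log2 fold change -2.85 ± 0.90, adjusted p = 0.11, against -4.99 ± 0.54, adjusted p = 0.00058 without replicate 1), and the antimicrobial peptide gene Defb1 at 1.44, 0.181 and 0.111 CPM in PC and 7.62, 6.5 and 4.24 CPM in PP (log2 fold change -3.35 ± 0.89, adjusted p = 0.05, against -5.35 ± 1.01, adjusted p = 0.0087). The groups did not overlap in any of these 5 genes. Cyp17a1 and Defb1 are not on the periportal list and were named because their values moved most without replicate 1. Igfals, Hamp and Atp2a2, also on the list, were called in neither fit (log2 fold changes 0.02, -0.02 and -0.30).

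Genes of nitrogen metabolism split by enzyme. Of 19 ammonia and glutamine genes 5 were higher and 2 lower, and 2 and 1 of these held. Without PC replicate 1, 5 were higher and 3 lower. Calls over all genes tested were 3.35% higher and 3.05% lower. Besides Glul, Oat and Slc1a2 the higher side included the neutral amino acid carrier Slc1a4 (1.97), lost when PC replicate 2 or 3, or PP replicate 1, 2 or 3 was left out. Got1, cytosolic aspartate aminotransferase, was lower, at 352, 389.8 and 349.8 CPM in PC and 779, 458 and 650.5 CPM in PP (log2 fold change -0.79 ± 0.16, adjusted p = 0.011). In the urea cycle 10 genes were tested and 2 were lower, or 3 without PC replicate 1. Asl, argininosuccinate lyase, was at 876, 498 and 613 CPM in PC and 1947, 1234 and 1354 CPM in PP (log2 fold change -1.19 ± 0.24, adjusted p = 0.0099) and held. Arg1, arginase, was at 2064, 1129.6 and 1402 CPM in PC and 3213, 2499 and 2642 CPM in PP (log2 fold change -0.86 ± 0.19, adjusted p = 0.016), and its call was lost when PC replicate 2 or 3, or PP replicate 1 was left out. Ass1 was at 3362, 2682 and 3206 CPM in PC and 6475, 3688 and 5705 CPM in PP (log2 fold change -0.78 ± 0.24, adjusted p = 0.077), Cps1 at 4833, 2614 and 3278 CPM in PC and 4999, 3783 and 3909 CPM in PP (log2 fold change -0.24 ± 0.24, adjusted p = 0.65) and Otc at 361, 229 and 235 CPM in PC and 404, 364 and 365 CPM in PP (log2 fold change -0.46 ± 0.16, adjusted p = 0.12). Of these, Otc passed without PC replicate 1 (-0.71 ± 0.11, adjusted p = 0.0024).

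In each list of amino acid breakdown a minority of genes was called. Over all genes tested, 3.35% were called higher and 3.05% lower. Of 29 genes for serine, glycine and histidine 1 was higher and 5 lower, 1 and 3 of which held, and the lower count was 9 without PC replicate 1. Gldc, glycine decarboxylase, was at 112, 37.1 and 73.1 CPM in PC and 381, 327 and 451 CPM in PP (log2 fold change -2.38 ± 0.37, adjusted p = 0.0036). Agxt2, a mitochondrial aminotransferase, was on the other side, at 119.6, 127 and 139 CPM in PC and 67.4, 70.2 and 52.3 CPM in PP (log2 fold change 1.02 ± 0.12, adjusted p = 0.0007). Ftcd and Uroc1, which follow Hal in histidine breakdown, were at 269, 61 and 86.4 CPM in PC and 595, 535 and 411 CPM in PP, and 521, 214 and 262 CPM in PC and 811, 947 and 864 CPM in PP. Their calls (adjusted p = 0.036 and 0.012) did not hold. Uroc1 was lost without PC replicate 3, and Ftcd was lost whenever any library other than PC replicate 1 was left out. Without replicate 1 both were far below the threshold (adjusted p = 9.1e-06 and 9.9e-05). Of 21 genes for tryptophan, phenylalanine and tyrosine 3 were lower and Got1 held. Without PC replicate 1, 3 were lower and 1 higher. Of the 21 log2 fold changes 12 were positive (median 0.12), and Tat, Tdo2 and Hpd were not called (adjusted p from 0.14 to 0.63). Csad, which makes the taurine precursor hypotaurine, was at 242, 589 and 549.6 CPM in PC and 65.6, 36.1 and 39.1 CPM in PP (log2 fold change 3.29 ± 0.43, adjusted p = 0.0016). It was the only higher call among 29 genes for branched chain, lysine, methionine and cysteine metabolism and held, and the 3 lower calls did not, with 19 of 29 log2 fold changes positive (median 0.083). That list had 1 higher and 2 lower calls without PC replicate 1. Amino acid carriers had 5 higher and 3 lower of 26 with and without PC replicate 1, and 3 and 2 held, among them the aromatic amino acid carrier Slc16a10 (1.85).

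Gluconeogenic genes that were called were mostly lower in PC, with modest folds. Of 21 tested, 7 were lower and 1 higher, 4 lower genes held and 17 of 21 had a negative log2 fold change, with a median of -0.55. Lower calls made up 3.05% and higher calls 3.35% of all genes tested. Without PC replicate 1 the list had 5 lower and 1 higher calls, and the median was nearer to no difference, at -0.39. Fbp1, fructose bisphosphatase, was at 803, 791 and 873 CPM in PC and 1373, 1330.0 and 1605 CPM in PP (log2 fold change -0.80 ± 0.11, adjusted p = 0.0014). Replicate 1 lay with the other PC libraries. Eno1, enolase, gave -0.68. G6pc, glucose-6-phosphatase, was at 415, 719 and 524 CPM in PC and 868, 1388 and 1093 CPM in PP (log2 fold change -1.01 ± 0.25, adjusted p = 0.034). Its call was lost when fed PC replicate 2, PC replicate 1 or 3, or PP replicate 2 or 3 was left out. Pck1, the hormone-controlled entry enzyme, was at 4382, 4672 and 4516 CPM in PC and 8245, 6426 and 10349 CPM in PP, without overlap between the groups, and did not pass (log2 fold change -0.88 ± 0.61, adjusted p = 0.5). With the 6 fasted libraries fitted alone Pck1 passed (edgeR adjusted p = 0.034). Of 24 glycolysis and fructose genes 4 were lower (2 without PC replicate 1) and Tkfc, triokinase of the fructose route, held at 157, 242 and 229 CPM in PC and 469.5, 549 and 565 CPM in PP (log2 fold change -1.33 ± 0.20, adjusted p = 0.0019). Khk (log2 fold change -0.77 ± 0.21, adjusted p = 0.049) and the fructose carrier Slc2a5 (log2 fold change -2.0 ± 0.50, adjusted p = 0.04) did not hold. Of 16 glycogen genes only Stbd1, a glycogen-binding protein, was called, at 73.7, 118 and 105 CPM in PC and 38.2, 35 and 43.4 CPM in PP (log2 fold change 1.34 ± 0.17, adjusted p = 0.00076), and it held. The glycogen list again had 1 higher call without PC replicate 1, and nothing is read from its number of calls.

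Genes of fatty acid oxidation differed by small amounts. Of 40 genes of oxidation and ketogenesis 35 had a positive log2 fold change, with a median of 0.32, but 5 were called higher and none of these held. Without PC replicate 1 the counts were again 5 higher and 2 lower. Calls over all genes tested were 3.35% higher and 3.05% lower. Bdh1, which makes hydroxybutyrate, was at 373, 278 and 252 CPM in PC and 126, 149.6 and 133 CPM in PP (log2 fold change 1.14 ± 0.23, adjusted p = 0.012), and lost its call without PP replicate 1 or 3. The 2 lower genes held: Eci3, a peroxisomal isomerase, at 0.258, 0.0602 and 0.333 CPM in PC and 3.81, 8.88 and 3.05 CPM in PP (log2 fold change -4.54 ± 0.73, adjusted p = 0.0035), and Slc16a6, a carrier known to export ketone bodies, at 2.16, 1.08 and 1.55 CPM in PC and 8.63, 7.25 and 11.4 CPM in PP (log2 fold change -2.49 ± 0.32, adjusted p = 0.00086). Cpt1a, which admits fatty acids to mitochondria, was at 689.8, 590.4 and 644 CPM in PC and 491, 678 and 586 CPM in PP. Its groups overlapped and it was not called (log2 fold change 0.13 ± 0.14, adjusted p = 0.67).

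Of 31 PPARalpha targets 2 were called higher, among them Pex11a, neither held, and 3 were called without PC replicate 1. The share over all genes tested was 3.35% higher. Nothing is read from the number of calls among PPARalpha targets or genes of lipid and cholesterol synthesis. Cyp4a14 was at 3959, 4998 and 6539.8 CPM in PC and 4021, 3204 and 3150.0 CPM in PP (log2 fold change 0.58 ± 0.59, adjusted p = 0.67) and Pdk4 at 22.1, 111 and 163 CPM in PC and 26.2, 60.6 and 101 CPM in PP (log2 fold change 0.65 ± 0.69, adjusted p = 0.68), and in both genes the groups overlapped. Fgf21, a fasting hormone, was at 0.258, 2.23 and 4.82 CPM in PC and 1, 4 and 3.19 CPM in PP (adjusted p = 0.94). Of 30 genes of lipid synthesis 1 was called, Tmem97, which did not hold, and 1 was called without PC replicate 1. Fasn was at 43, 49 and 64.4 CPM in PC and 64.4, 158 and 61.8 CPM in PP (log2 fold change -0.86 ± 0.44, adjusted p = 0.32) and Acly at 151, 114 and 129.9 CPM in PC and 269.7, 336 and 374 CPM in PP (log2 fold change -1.31 ± 0.48, adjusted p = 0.16). The groups of Acly did not overlap, and it passed with the fasted libraries alone (edgeR adjusted p = 0.0073) and in DESeq2 (adjusted p = 0.047). Scd1 was at 1692, 8903 and 8928 CPM in PC and 1471, 7198 and 9982 CPM in PP, where replicate 1 of either zone was the low library, and was not called (adjusted p = 0.98). Among 29 cholesterol synthesis genes 26 had a positive log2 fold change, with a median of 0.47. Of these genes 2 were called (3 without PC replicate 1), among them Tm7sf2 (log2 fold change 0.70 ± 0.18, adjusted p = 0.043).

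Several secreted plasma proteins were lower in PC. Alb (ENSMUSG00000029368), albumin, was at 85469, 65556 and 78880.0 CPM in PC and 137300.0, 126250.0 and 136550.0 CPM in PP (log2 fold change -0.80 ± 0.12, adjusted p = 0.0018) and made up 6.71% to 8.48% of all counts in PC and 11.99% to 13.24% in PP. Apoa4, an apolipoprotein of triglyceride-rich particles, was at 222, 218 and 196 CPM in PC and 1479.7, 1806 and 1026 CPM in PP (log2 fold change -2.76 ± 0.36, adjusted p = 0.0013). Apoc2, which activates lipoprotein lipase, was at 79.5, 58.3 and 74.2 CPM in PC and 199, 229 and 227 CPM in PP (log2 fold change -1.63 ± 0.13, adjusted p = 4.7e-05), and Apoc3, which inhibits it, gave -0.79. PC replicate 1 lay within or near the range of the other PC libraries in these 4 genes. Of 25 apolipoprotein and lipoprotein genes 4 were lower and 1 higher (4 and 2 without PC replicate 1), and 3 lower genes held. Lower calls made up 3.05% and higher calls 3.35% of all genes tested. Apob, the structural protein of secreted particles, was at 7020.3, 5491 and 6114 CPM in PC and 7249, 7085 and 7945 CPM in PP and was not called (adjusted p = 0.4).

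In the acute phase and iron list 31 of 35 genes had a negative log2 fold change, 6 were lower and 1 higher, and 3 lower genes held. Without PC replicate 1, 7 were lower and 0 higher. Calls over all genes tested were 3.05% lower and 3.35% higher, and nothing is read from the 1 higher call. Hpx, hemopexin, which carries heme, was at 1535, 1187 and 1347 CPM in PC and 3921, 3245 and 4109 CPM in PP (log2 fold change -1.47 ± 0.15, adjusted p = 0.00031). Lcn2, which binds bacterial iron carriers, was at 3.3, 3.73 and 5.15 CPM in PC and 15.1, 24.3 and 23.4 CPM in PP (log2 fold change -2.36 ± 0.30, adjusted p = 0.00077), and Lbp, which binds endotoxin, gave -0.83. Of 38 coagulation and complement genes 32 were negative, 8 were lower and 2 higher, and 2 and 1 held. Without PC replicate 1 the counts were 13 lower and 4 higher. C9, a pore subunit of complement, was at 79.3, 30.6 and 45.2 CPM in PC and 144, 144 and 183 CPM in PP (log2 fold change -1.60 ± 0.29, adjusted p = 0.0079), and Cfi, a complement protease, gave -0.81. Pros1, protein S, was the reverse, at 48.5, 71.8 and 75.2 CPM in PC and 32, 27.7 and 31.8 CPM in PP (log2 fold change 1.09 ± 0.15, adjusted p = 0.0012). Serpina6, which binds corticosterone, was at 476, 491 and 409 CPM in PC and 76.2, 173 and 114 CPM in PP (log2 fold change 1.92 ± 0.32, adjusted p = 0.0047), and Inhbc, an activin subunit, at 51.5, 75.2 and 70.5 CPM in PC and 27.1, 30.6 and 37.8 CPM in PP (log2 fold change 1.05 ± 0.20, adjusted p = 0.0081). Ttr, transthyretin, was at 4449, 4142 and 4508 CPM in PC and 3874, 4213 and 4217 CPM in PP and did not differ beyond its spread (adjusted p = 0.71).

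Few members of the regulator lists were called. Of all genes tested 3.35% were higher and 3.05% lower, and nothing is read from the counts of these lists beyond the genes named. Of 30 nuclear receptors and sensors 3 were higher and 2 lower, 2 and 2 of which held (3 and 3 were called without PC replicate 1). Ahr, the aryl hydrocarbon receptor, was at 34.8, 85.1 and 48 CPM in PC and 10.7, 10.1 and 8.48 CPM in PP (log2 fold change 2.51 ± 0.40, adjusted p = 0.0044). Pparg was at 19, 32 and 21.1 CPM in PC and 8.38, 8.26 and 6.7 CPM in PP (log2 fold change 1.62 ± 0.19, adjusted p = 0.00044), and Esrra was lower (-0.56). Of 44 transcription factors 2 were higher and 4 lower, 2 and 3 of which held (3 and 4 were called without PC replicate 1). Tcf7l1, a repressive TCF factor, was at 1.65, 0.843 and 1.66 CPM in PC and 10.1, 8.83 and 11.7 CPM in PP (log2 fold change -2.87 ± 0.28, adjusted p = 0.00022), opposite to Tcf7. Klf10 was at 10.5, 10.1 and 14.9 CPM in PC and 42.6, 32.7 and 24.6 CPM in PP (log2 fold change -1.49 ± 0.25, adjusted p = 0.0039). Hnf4a, which maintains hepatocyte identity, was at 811, 776 and 895 CPM in PC and 903, 830.0 and 939 CPM in PP and was not called (adjusted p = 0.67). Of 25 Wnt pathway components, as distinct from targets, 1 was called lower and it did not hold (1 higher and 1 lower without PC replicate 1). Among 36 insulin, glucagon and growth hormone genes 1 was higher and 4 lower (1 and 3 without PC replicate 1), and Fgfr2 and Cux2 (-1.13) held. In the list of 26 female-biased liver genes 8 were higher and 2 lower, 2 and 1 of which held (5 and 3 were called without PC replicate 1), and 3 of the higher genes were the near-identical Cyp3a copies. Egln3, an oxygen-sensing prolyl hydroxylase, was at 14.1, 24.9 and 21.6 CPM in PC and 6.12, 6.99 and 6.47 CPM in PP (log2 fold change 1.63 ± 0.21, adjusted p = 0.0008). It and Ndrg1 (1.57) were the called and held members of 21 hypoxia targets, of which 3 were higher and 1 lower without PC replicate 1. Cell junction genes had 3 higher and 3 lower of 34 (3 and 5 without PC replicate 1), with Cldn2, a pore-forming claudin, at 68.9, 104 and 100.4 CPM in PC and 7.67, 10.2 and 2.1 CPM in PP (log2 fold change 3.77 ± 0.47, adjusted p = 0.0013), and Cdh2, N-cadherin, at 0.68 against Cdh1 at -2.91.

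Of 13 mitochondrially encoded genes 8 were called lower in PC (9 without PC replicate 1), and mt-Nd1 and mt-Atp8 held. All 13 log2 fold changes were negative, with a median of -0.51. The subunit gene mt-Nd1 was at 5279, 4547 and 4936 CPM in PC and 8102, 8047 and 7744 CPM in PP (log2 fold change -0.69 ± 0.11, adjusted p = 0.0025). Together mitochondrial genes made up 6.3% to 7.44% of all counts in PC and 8.88% to 9.73% in PP. Nuclear genes of oxidative phosphorylation were negative in 65 of 74, with a median of -0.20, but 3 were called (3 without PC replicate 1) and none held. Of 23 genes of the TCA cycle 1 was higher and 1 lower, neither held, and 1 was higher and 3 lower without PC replicate 1. Of 36 autophagy genes 2 were higher and 1 lower (2 and 1 without PC replicate 1), and none held. The shares over all genes tested were 3.35% higher and 3.05% lower. Nothing is read from the number of calls in the TCA cycle and autophagy lists. No gene of the 37 in the ATF4 and ER stress list or of the 21 clock genes was called, in either direction, by edgeR with all libraries or without PC replicate 1. In the former list 33 of 37 log2 fold changes were negative, with a median of -0.22.

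**Figure D3:**
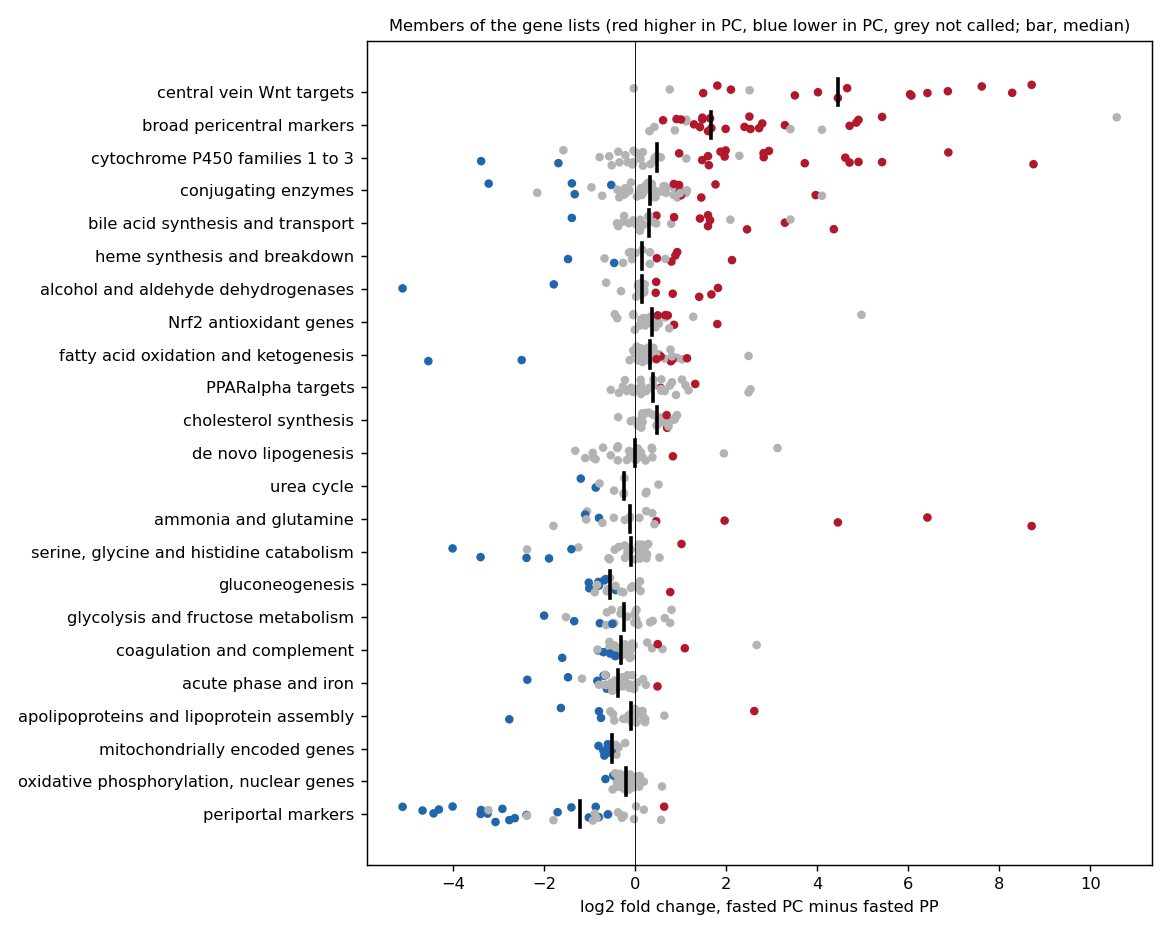
Log2 fold change of fasted PC minus fasted PP for each tested member of 23 gene lists, 1 row per list. Red points were called higher in PC, blue points lower, grey points not called, and the black bar is the median. The central vein list has its median at 4.46, the periportal markers at -1.21 and the mitochondrially encoded genes at -0.51, and the grey point beyond 10 is Slc22a3, at 0 in PP.

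The zone difference in fed mice came from 6 other libraries in the same model. Both contrasts use the same estimate of spread for a gene, so a gene with a small spread passes more easily in both. There 570 genes were called (4.72%), 271 higher in PC (2.24%) and 299 lower (2.47%). Of the 271, 267 had the same sign in fasted mice and 198 (73.1%) were called in the same direction. Of the 299, 294 had the same sign and 192 (64.2%) were called in the same direction. Seen from fasted mice, 198 of 405 higher calls (48.9%) and 192 of 369 lower calls (52%) were called in fed mice. Across the 12086 genes, which are not independent replicates and share depth and composition within a library, the fed and fasted log2 fold changes gave a Pearson r of 0.61 and a Spearman rho of 0.50.

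A test of the difference between the fasted and the fed zone contrast called 0 genes in edgeR with all libraries. At an unadjusted p under 0.05 it found 465, and DESeq2 called 11. No gene can therefore be described as zoned in fasted mice alone. Some genes held in fasted mice and were not called in fed mice. Tkfc was at -1.33 in fasted and -0.05, adjusted p = 0.94 in fed mice. Lcn2 was at -2.36 and -0.56, adjusted p = 0.39, and Klf10 at -1.49 and -0.16, adjusted p = 0.82. Abcc3 was at 0.86 and -0.13, adjusted p = 0.78, Stbd1 at 1.34 and 0.40, adjusted p = 0.23, and Serpina6 at 1.92 and 0.70, adjusted p = 0.29. Cabyr, a calcium-binding protein best known from sperm, was the only gene called in opposite directions. It was at 3.14, 1.93 and 3.71 CPM in PC and 0.351, 0.395 and 0.638 CPM in PP in fasted mice (log2 fold change 2.65 ± 0.42, adjusted p = 0.0023) and had a fed log2 fold change of -1.73, adjusted p = 0.04. Its levels were low, and the difference between the contrasts was 4.38 with adjusted p = 0.088.

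**Figure D4:**
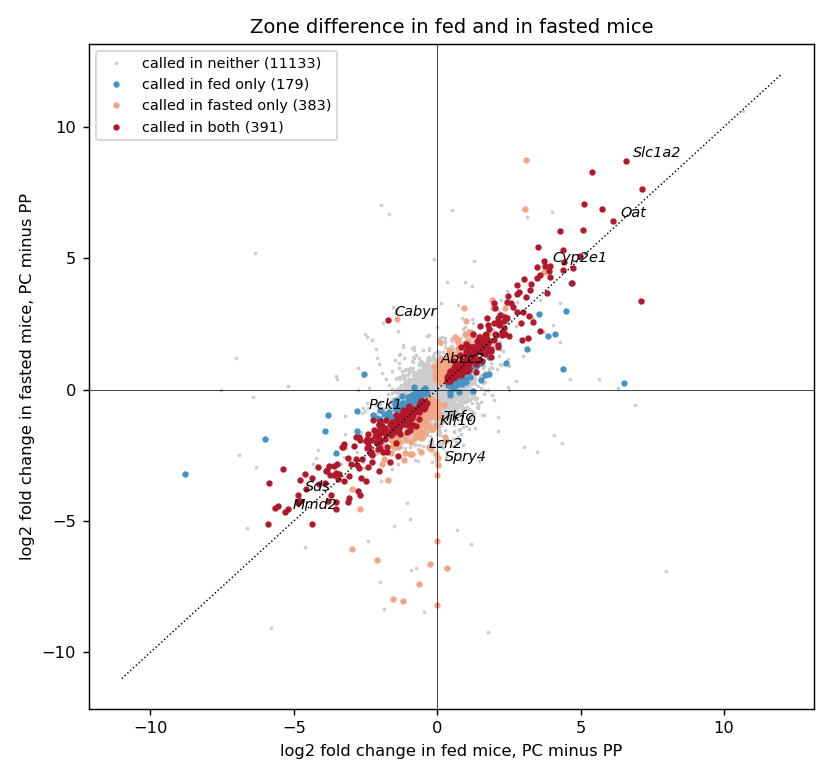
Log2 fold change of PC minus PP in fasted mice (vertical axis) against fed mice (horizontal axis), 1 point per gene tested. Colours separate the 391 genes called in both states, the 383 called in fasted mice only and the 179 called in fed mice only. Called genes lie mostly in the quadrants of equal sign, and Cabyr lies in the opposite one.

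The place of PC replicate 1 was measured with genes called between the fed zones. That fit held all 12 libraries, so replicate 1 took part in its filter and its estimates of spread. The choice of genes was therefore not independent of it, and without replicate 1 the fed calls numbered 701 in place of 570. Over the 271 genes higher in fed PC, its median log2 difference from the mean of the fasted PP libraries was 0.75, against 1.09 and 0.97 in PC replicates 2 and 3. Over the 299 genes lower in fed PC it was -0.75, against -1.02 and -0.98. The PP libraries lay between -0.11 and 0.09 on both measures. Over the 17 central vein targets the medians of the 3 PC libraries were 2.19, 4.47 and 3.53, over the 29 broad pericentral markers 1.34, 2.06 and 1.86, and over the 36 periportal markers -0.92, -1.5 and -1.18. The PP libraries ranged from -0.39 to 0.13, -0.26 to 0.17 and -0.09 to 0.01 on these lists. PP replicate 3 was the lowest on both pericentral lists. Replicate 1 thus lay on the PC side of PP on every one of these measures and nearer to PP than the others. For the central vein targets this repeats the reason it was singled out.

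Leaving it out added 346 calls among genes tested in both fits and ended 119. Genes that moved most were Slc22a3, Tuba8, a tubulin at 0.155, 9.39 and 7.93 CPM in PC and 0.853, 0.264 and 1.5 CPM in PP, and the heat shock gene Hspa1b at 2.06, 23.7 and 133 CPM in PC and 4.46, 3.91 and 8.8 CPM in PP, a near-identical copy of Hspa1a, beside Slc1a2 and Glul, on the higher side. Downward moves were largest in Hal, Cyp17a1, Defb1 and the Cyp3a copies described above. Tuba8 and Hspa1b passed only without replicate 1 (adjusted p = 0.0053 and 0.014, against 0.17 and 0.15). Other genes kept nearly the same value, and Cyp2e1 went from 4.71 to 4.82, Hsd3b7 from 1.60 to 1.61 and Aldh3a2 from 1.82 to 1.86.

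**Figure D5:**
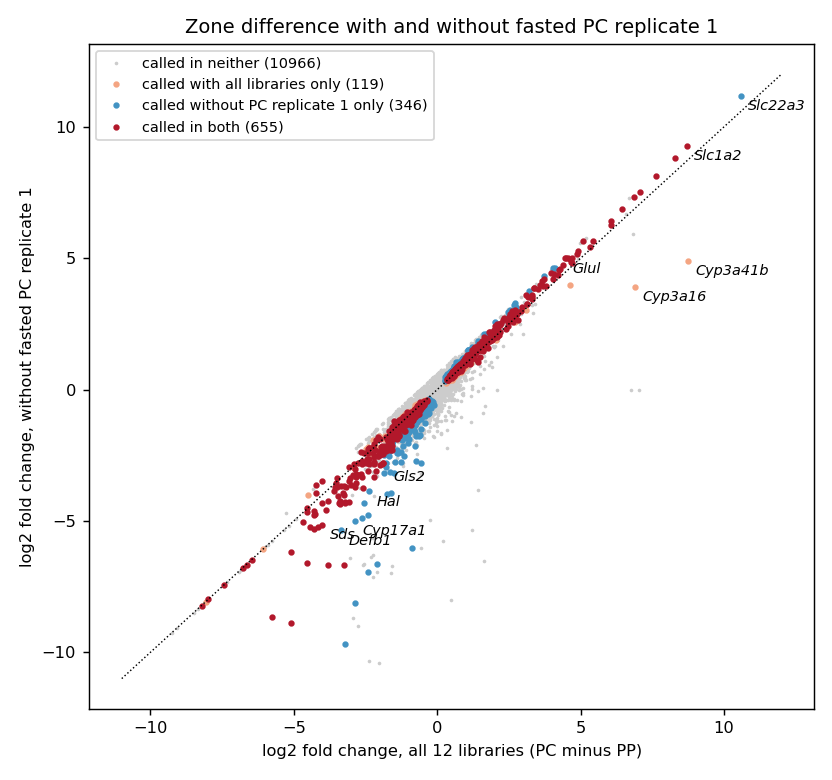
Log2 fold change of PC minus PP without fasted PC replicate 1 (vertical axis) against the value with all libraries (horizontal axis), 1 point per gene. The dotted line marks equal values. Colours separate the 655 genes called in both fits, the 119 called with all libraries only and the 346 called without replicate 1 only.

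Markers of other liver cells were low in every fasted library, and their part in the results was not tested. None of 15 endothelial markers tested was called, but 14 log2 fold changes were negative, with a median of -1.12 (-0.86 without PC replicate 1) and summed levels of 12.1 to 19.2 CPM in PC and 9.48 to 50.4 CPM in PP. The central vein endothelial genes Wnt2, Wnt9b and Rspo3 stayed at or below 0.166 CPM. Of the Kupffer cell list 9 were tested and none was called, with all 9 log2 fold changes negative and a median of -0.55 (-0.19 without PC replicate 1). Nearly all of their sum of 130 to 165 CPM in PC and 180.1 to 245 CPM in PP came from Slc40a1, the iron exporter, which hepatocytes also express, and Clec4f reached 1.2 CPM at most. The 5 stellate cell markers tested summed to 4.17 to 4.55 CPM and 2.6 to 6.33 CPM, with none called, and Col1a1 and Col3a1 stayed at or below 0.309 CPM. Of 10 cholangiocyte markers tested 2 were called lower, Sox9 and Spp1, at 3.5, 4.27 and 6.43 CPM in PC and 10.5, 17.1 and 12.7 CPM in PP for Spp1, and both held. All 10 log2 fold changes were negative, with a median of -0.94, and 5 were called lower without PC replicate 1. Their sum of 941 to 1046 CPM in PC and 1138 to 1324 CPM in PP came mainly from Clu, which hepatocytes also express, while Epcam was at 0 in PC and at most 0.561 CPM in PP and Krt19 reached 0.729 CPM. Blood cell markers, mainly globin genes, summed to 6.8, 445 and 23.8 CPM in PC and 7.77, 16.6 and 154 CPM in PP, so that PC replicate 2 and PP replicate 3 stood out. None of 9 was called with all libraries (7 positive, median 1.09), and 1 was called higher without PC replicate 1. The 24 genes induced by tissue dissociation summed to 428 to 731 CPM in PC and 605 to 1047 CPM in PP, with none called with all libraries, 17 negative (median -0.53) and 3 called higher without PC replicate 1.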

How the data were processed

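Total RNA of isolated hepatocytes was sequenced from NEBNext Ultra libraries, which do not mark strand, per the labels' protocols, so overlapping genes on opposite strands cannot be told apart. The deposited values are estimated counts of genes in 12 libraries. The submitters' processing notes name kallisto 0.46.0 and the build mm10. The transcript annotation, the summing to genes and trimming are not given in the sources used here. Such counts assign the reads of near-identical genes by a model, so close paralogs are uncertain.

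Values were rounded to whole numbers, which moved a library's total by at most 121 counts. Symbols and coordinates came from GENCODE M21 (GRCm38), with symbols for 27566 of 28030 identifiers. Genes were kept by filterByExpr, libraries scaled by TMM, and 4 group means fitted jointly to the 12 libraries (edgeR 4.0.16, robust quasi-likelihood, R 4.3.3), leaving 8 residual degrees of freedom, with Benjamini-Hochberg adjustment over 12086 genes. SE is the unshrunk log2 fold change over the root of its F value. Libraries of 1 group differed by more than sampling noise (chi-square per degree of freedom at least 23.9), so none was deposited 2 times. The fit was tested on simulated data.

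The 46 gene lists and the named genes were chosen with earlier results of these data known. Named were the 15 highest and 15 lowest log2 fold changes among held calls of at least 5 CPM without overlap, anchor genes, up to 3 called members of each list in either direction, the 5 genes per direction with the highest mean CPM among calls, and the 5 per direction that moved most without PC replicate 1. Genes named outside this rule were chosen after their values were seen. Some genes that the rule selects are not reported here. The alternatives were relative log expression size factors, no filter, DESeq2 1.42.0, a replicate block, the fasted libraries alone, a fold threshold and leaving out each library.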

Additional observations from a re-analysis of the deposited data

Results flagged for a closer look

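The difference between the fasted and the fed zone contrast passed the test for 2 genes when fasted PC replicate 1 was left out. For Slc1a2, the glutamate importer, the log2 fold change of PC minus PP was larger in fasted than in fed mice by 2.68 without that library (adjusted p = 0.034), and by 2.14 with all libraries (adjusted p = 1.0). For Spry4, an inhibitor of receptor tyrosine kinase signalling, it was lower in fasted mice by 3.73 (a difference of -3.73, adjusted p = 0.034), and by 2.88 with all libraries (a difference of -2.88, adjusted p = 1.0). Both calls rest on 2 fasted PC libraries. Slc1a2 is one of the markers by which the left-out library was singled out, so its call depends on that choice. Its PP means were low, at 0.953 CPM in fasted and 2.42 CPM in fed mice.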

How the results depend on the processing

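The count of calls between the fasted zones (774) was 767 with relative log expression size factors, 667 without the filter, 1131 with DESeq2, 406 with a log2 fold change of at least 1 required and 376 with the fasted libraries alone. On the higher side (405) the fasted libraries alone gave 195, and on the lower side (369) they gave 181 and DESeq2 555. Leaving out 1 library gave 386 to 1005 calls, 203 to 484 higher and 183 to 521 lower. Without fasted PC replicate 1, the fasted libraries alone gave 632 calls in place of 1005, 314 higher in place of 484 and 318 lower in place of 521. The fed contrast (570) had 929 calls with DESeq2 and 292 to 701 with 1 library left out. The test of fasted against fed contrast (0) gave 1 without the filter, 11 with DESeq2 and 0 to 2 with 1 library left out. Called list members (201) fell to 126 with the fasted libraries alone and ranged from 132 to 238 with 1 library left out. Among genes of at least 50 CPM, the median place of PC replicates 1, 2 and 3 over genes lower in fed PC was -0.58, -0.81 and -0.75. Of 154 called named genes none changed sign under any setting, and 108 (fasted libraries alone) to 154 (DESeq2) stayed called. Held named genes that lost the call with the fasted libraries alone were Slc1a2, Sds, Cyp2a5, C9, Sult5a1 and Got1 (adjusted p from 0.056 to 0.098). Of the named genes not called, 2 were gained with the fasted libraries alone (Pck1 and Acly) and 10 with DESeq2 (Acly, Ass1, Cyp7a1, Cyp17a1, Defb1, Gls2, Hspa1b, Otc, Pigr and Slc22a3). 3 uncalled genes changed sign with 1 library left out: Alas1 ranged from -0.30 to 0.22, Fgf21 from -1.19 to 0.35 and Scd1 from -0.42 to 0.56. The cause of these changes was not tested, beyond the fewer samples in the smaller fits.

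Same-numbered fasted PC and PP libraries deviated from their group means with correlations of 0.24, -0.14 and 0.13, and differently numbered ones with -0.32 to 0.25. In fed libraries same numbers gave 0.354, -0.0069 and 0.217, and different numbers -0.293 to 0.0906. These values do not settle whether libraries were paired, and the main fit used no pairing. With the replicate number as a block 882 genes were called, 449 higher and 433 lower. Of the named genes it ended 13 calls and added 9.

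With 3 libraries per group and 16245846 to 23969208 counts, genes of a few CPM carry wide errors. A gene that missed the threshold is not shown to be equal between the zones.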
